A study of Mus musculus with 6 samples.

Results

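The small leucine-rich proteoglycans are secreted matrix proteins, and 8 of their genes were followed here across 6 RNA sequencing libraries: Dcn (decorin), Bgn (biglycan), Aspn (asporin), Fmod (fibromodulin), Lum (lumican), Prelp (proline and arginine rich end leucine rich repeat protein), Ogn (osteoglycin) and Podn (podocan). They were picked out by gene symbol, and all 8 were found among the 56691 genes of the deposited table. The cells were primary hepatic stellate cells from the livers of wild-type mice, and poly(A) RNA was sequenced in bulk. The 3 groups held 2 libraries each: cells given TGF-beta together with K-80003 (the TGF-beta-K-80003 group), cells given TGF-beta alone, and untreated Control cells. K-80003 is a compound known by a code name, and the study's title concerns the nuclear receptor RXRα. No group received K-80003 alone, so its comparison with TGF-beta speaks only of cells that also had TGF-beta. The sources used here give no dose, time, age or sex. They do not say whether the 2 libraries of a group came from separate mice or cultures, so the p-values measure only the spread between these libraries.

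Each of these proteins is built on a curved stack of leucine-rich repeats that binds collagen, and most carry glycosaminoglycan chains. They lie along the surface of collagen fibrils, limit how thick the fibrils grow, and several of them hold TGF-beta and other growth factors in the matrix. By sequence and gene structure, decorin, biglycan and asporin form class I, fibromodulin, lumican and PRELP belong to class II, osteoglycin to class III, and podocan to class V. In the liver, hepatic stellate cells, the vitamin A-storing pericytes that make scar matrix when activated, are a known source of decorin, biglycan and lumican.

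Promoter sequence was available from RefSeq on GRCm38.p6 for 6 of the 8 genes, namely Bgn, Aspn, Fmod, Prelp, Ogn and Podn, the last with 2 start sites. Dcn and Lum are named only. The 250 bases before the start are shown for 3 genes that fell when K-80003 was added (Ogn, Fmod and Prelp) and for Bgn, which did not pass that test. They read 5′ to 3′ on the gene's strand. Capitals mark any match on either strand to 1 of 6 short motifs. The letters searched were CAGAC for the SMAD element, TGANTCA for the AP-1 site, AGGTCA for the nuclear receptor half-site, GGAATG for the TEAD site, GGGCGG for the SP1 box and TATAAA for the TATA box. The Ogn window is chr13:49607765-49608014 (plus strand), the Fmod window chr1:134037004-134037253 (plus), the Prelp window chr1:133921402-133921651 (minus) and the Bgn window chrX:73483351-73483600 (plus). Bases just after the start were looked for near the beginning of annotated transcripts of the same gene. They were found for every window except that of Ogn, so its start did not pass this check.
Ogn: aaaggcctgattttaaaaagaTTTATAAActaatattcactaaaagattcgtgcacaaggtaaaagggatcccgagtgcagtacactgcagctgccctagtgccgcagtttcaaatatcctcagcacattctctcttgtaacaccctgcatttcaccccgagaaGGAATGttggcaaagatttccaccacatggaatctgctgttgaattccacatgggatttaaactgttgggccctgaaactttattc
Fmod: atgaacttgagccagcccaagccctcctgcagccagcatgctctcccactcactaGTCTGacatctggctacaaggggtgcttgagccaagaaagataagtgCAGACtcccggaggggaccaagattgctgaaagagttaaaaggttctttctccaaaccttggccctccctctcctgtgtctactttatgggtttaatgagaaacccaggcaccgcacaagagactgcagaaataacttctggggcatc
Prelp: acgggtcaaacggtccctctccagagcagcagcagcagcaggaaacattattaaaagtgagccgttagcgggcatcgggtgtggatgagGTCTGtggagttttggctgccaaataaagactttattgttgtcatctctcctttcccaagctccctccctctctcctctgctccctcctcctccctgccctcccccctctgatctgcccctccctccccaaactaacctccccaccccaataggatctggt
Bgn: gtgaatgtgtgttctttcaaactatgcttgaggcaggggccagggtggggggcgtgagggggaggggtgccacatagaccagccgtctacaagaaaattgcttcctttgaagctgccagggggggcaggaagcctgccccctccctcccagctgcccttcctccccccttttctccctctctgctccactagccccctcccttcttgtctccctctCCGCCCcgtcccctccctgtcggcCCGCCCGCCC

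The 4 windows shared no motif of the set with each other apart from CAGAC, which occurred 2 times in Fmod and 1 time in Prelp and is found in 42.2% of 32851 RefSeq mouse promoters of the same length. The Ogn window held GGAATG 1 time (12.6% of promoters) and 2 overlapping matches to TATAAA (12.4%). The Bgn window held GGGCGG 3 times, with the last 2 matches overlapping (32.7% of promoters). Of the windows not shown, the first Podn start held GGGCGG 2 times, the second Podn start held AGGTCA 1 time (14% of promoters) and Aspn held TATAAA 2 times. TGANTCA, found in 6.75% of promoters, was in none of the 7 windows. The share of G and C bases ran from 30% in Aspn and 42% in Ogn to 64.4% in Bgn and 78% at the first Podn start. These matches describe the letters only.

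Several of the genes sit side by side in the genome (coordinates of the deposited table, GRCm39). Dcn (chr10:97315471-97354005, plus strand) and Lum (chr10:97400990-97408565, plus) were 47 kb apart with no other listed gene starting between them. Aspn (chr13:49697919-49721041, plus) and Ogn (chr13:49761522-49777977, plus) had another family gene, Omd, between them. Prelp (chr1:133838042-133849152, minus) lay 116 kb from Fmod (chr1:133964992-133976015, plus). Bgn (chrX:72527208-72539539, plus) and Podn (chr4:107871988-107953642, minus) each lay on a chromosome with no other of the 8 genes. The identifiers are ENSMUSG00000019929 for Dcn, ENSMUSG00000031375 for Bgn, ENSMUSG00000021388 for Aspn, ENSMUSG00000041559 for Fmod, ENSMUSG00000036446 for Lum, ENSMUSG00000041577 for Prelp, ENSMUSG00000021390 for Ogn and ENSMUSG00000028600 for Podn.

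Summed counts ran from 15646093 to 19004144 per library, and 15987 genes had enough counts to be tested. All 12 stellate cell markers on the list were among the genes tested, with a summed level of 535 to 564 FPKM in TGF-beta-K-80003, 892 to 967 FPKM in TGF-beta and 1310 to 1322 FPKM in Control. FPKM is the read count scaled to the exonic length of the gene and to the summed count of the library. Lrat, the enzyme that esterifies vitamin A for storage and a defining stellate cell gene, had 2.07 and 2.4 FPKM in TGF-beta-K-80003, 70.67 and 83.09 FPKM in TGF-beta, and 209.98 and 150.93 FPKM in Control. Keratin genes were also present, as mesothelial and duct cells have them: Krt8 had 36.87 and 45.12 FPKM in TGF-beta-K-80003, 46.65 and 37.32 FPKM in TGF-beta, and 153.84 and 221.65 FPKM in Control. In bulk RNA, fewer cells of a type and less RNA per cell cannot be told apart.

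The 8 genes spanned a wide range of levels. In TGF-beta-K-80003 cells the order by mean FPKM was Bgn (516 ± 16.3, SD over 2 libraries, as for all such values here), Dcn (308 ± 21.8), Prelp (78.0 ± 4.94), Lum (28.4 ± 2.06), Ogn (1.39 ± 0.0495), Podn (0.78 ± 0.0141), Fmod (0.045 ± 0.00707) and Aspn (0.025 ± 0.0354). Fmod and Aspn overlapped between libraries there, and every other neighbouring pair was apart. With TGF-beta alone Dcn came first (676 ± 89.0), followed by Bgn (647 ± 68.8), Prelp (535 ± 121), Lum (151 ± 19.99), Ogn (46.0 ± 1.902), Podn (12.5 ± 2.16), Fmod (2.22 ± 0.431) and Aspn (0.145 ± 0.0636). Dcn overlapped Bgn and Bgn overlapped Prelp in that group. In Control cells the order was Dcn (787 ± 60.2), Prelp (681 ± 234), Bgn (375 ± 52.8), Lum (191 ± 6.34), Ogn (54.1 ± 2.22), Podn (6.39 ± 0.629), Fmod (3.22 ± 0.240) and Aspn (0.04 ± 0.0566). Dcn and Prelp overlapped in Control, so Bgn stood first or second in both groups with TGF-beta and below these genes in Control. Among all genes of the table ranked by mean FPKM, Dcn stood at place 85 in TGF-beta-K-80003, 30 in TGF-beta and 21 in Control, so it was one of the most abundant transcripts of these cultures in each group. Ogn stood at place 11428 in TGF-beta-K-80003, 1055 in TGF-beta and 884 in Control.

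**Figure D1:**
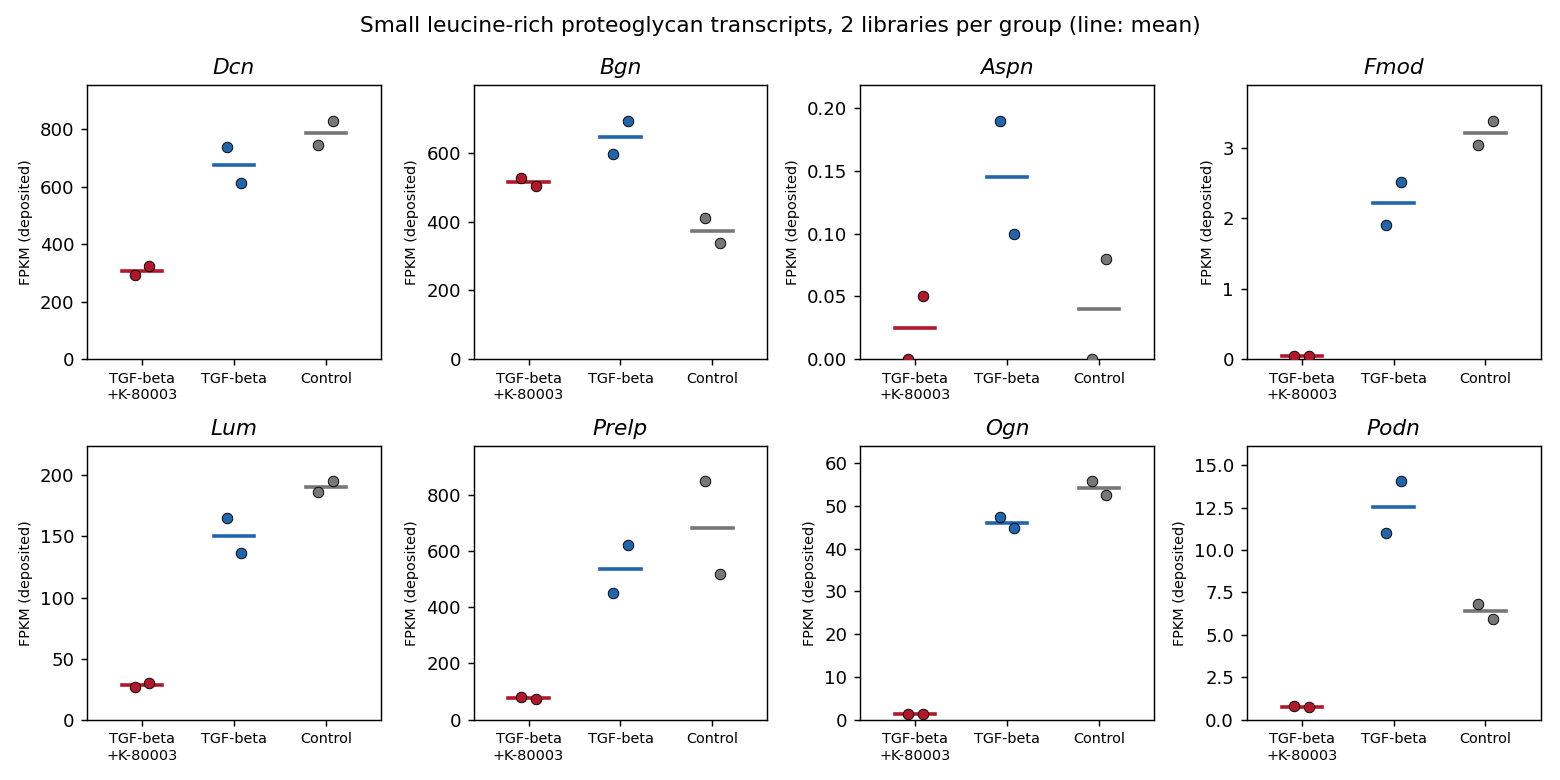
Deposited FPKM (linear axis from 0, a separate scale for each gene) of the 8 small leucine-rich proteoglycan genes in the TGF-beta-K-80003, TGF-beta and Control groups; points are libraries, 2 per group, and lines are group means. Ogn had 1.35 and 1.42 FPKM in TGF-beta-K-80003 against 44.7 or more in every other library. Bgn had 527.75 and 504.75 FPKM in TGF-beta-K-80003, 598.18 and 695.51 FPKM in TGF-beta, and 412.2 and 337.55 FPKM in Control.

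With K-80003 added to TGF-beta, 6 of the 7 genes that could be tested passed the test as lower than with TGF-beta alone. The range was from 2.36-fold for Dcn to 35.7-fold for Ogn, with a larger fold for Fmod. Bgn was lower by a log2 fold change of -0.43, which did not pass the test. Of all 15987 genes tested, 10.1% were called in this comparison at an adjusted p under 0.05 (edgeR's quasi-likelihood test with Benjamini-Hochberg adjustment over all genes tested), 7.32% as lower and 2.78% as higher. The median log2 fold change of the 7 tested genes was -2.89, beside 0.01 over all genes tested. Without the filter on low counts all 8 genes had a value, and their median was -2.72 beside 0 over 29811 genes. In TGF-beta against Control, 1 of the 7, Podn, was called higher and the other 6 passed no test, beside 2.94% of all genes in either direction, 1.06% as higher and 1.88% as lower. Against Control, the TGF-beta-K-80003 cells had the same 6 genes lower, where 17.3% of all genes were called, 11.7% as lower and 5.54% as higher. The median of the 7 was -0.11 for TGF-beta against Control and -3.02 for TGF-beta-K-80003 against Control, beside 0.01 and 0.02 over all genes. The 3 comparisons share libraries, so they are not independent of each other.

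Among the class I genes, Dcn, which binds collagen I fibrils and TGF-beta through its core protein, had 292.84 and 323.6 FPKM in TGF-beta-K-80003, 738.49 and 612.62 FPKM in TGF-beta, and 744.78 and 829.9 FPKM in Control. Both TGF-beta-K-80003 libraries lay below all 4 others, and the TGF-beta libraries lay just below those of Control. Its log2 fold change was -1.24 (SE 0.147) against TGF-beta, with an edgeR adjusted p of 0.00424, and -1.34 (SE 0.148) against Control, with an adjusted p of 0.00218. The call against TGF-beta was lost without replicate 1 or replicate 2 of TGF-beta-K-80003, where the edgeR adjusted p was 0.0608 and 0.0564. TGF-beta and Control differed by -0.10 (SE 0.145; edgeR adjusted p = 0.885), within the spread between libraries.

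Bgn, the class I relative of Dcn that carries a pair of glycosaminoglycan chains and, when released from the matrix, signals through Toll-like receptors, had 527.75 and 504.75 FPKM in TGF-beta-K-80003, 598.18 and 695.51 FPKM in TGF-beta, and 412.2 and 337.55 FPKM in Control. The groups did not overlap, and TGF-beta-K-80003 lay between TGF-beta and Control. None of the 3 differences passed the test. The log2 fold change of TGF-beta-K-80003 against TGF-beta was -0.43 (95% interval -0.85 to -0.02; edgeR adjusted p = 0.199), and against Control it was 0.48 (interval 0.06 to 0.89; adjusted p = 0.118). TGF-beta exceeded Control by 0.91 (SE 0.174, interval 0.49 to 1.33), with an edgeR adjusted p of 0.0515, just above the threshold of 0.05. DESeq2 gave an adjusted p of 0.00139 for the same difference.

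Aspn, a class I protein that binds collagen and TGF-beta but bears no chain, was close to absent. Its counts were 0 and 2 in TGF-beta-K-80003, 8 and 4 in TGF-beta, and 0 and 3 in Control, so it did not enter the test. The 3 counts used as a floor are worth between 0.158 and 0.192 CPM, the count per library scaled to the same total, in these libraries. Scaled for depth, the summed counts of TGF-beta-K-80003 were 0.156 times those of TGF-beta (exact 95% interval 0.017 to 0.702) and 0.613 times those of Control (0.0512 to 5.35). TGF-beta had 3.92 times the count of Control (1.06 to 21.7). These intervals cover counting error only, and no molecular identifiers are named in the protocol.

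Of the class II genes, Lum, a keratan sulfate proteoglycan best known for ordering collagen fibrils in the cornea, had 26.89 and 29.81 FPKM in TGF-beta-K-80003, 164.79 and 136.52 FPKM in TGF-beta, and 186.08 and 195.05 FPKM in Control. The TGF-beta-K-80003 libraries were far below the other 4, which were close to each other. Lum was 5.72-fold lower than with TGF-beta alone (log2 fold change -2.52, SE 0.156; edgeR adjusted p = 0.000583) and 6.66-fold lower than in Control (log2 fold change -2.74, SE 0.157; adjusted p = 0.000349). TGF-beta against Control gave -0.22 (SE 0.147; edgeR adjusted p = 0.623).

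Prelp, whose basic end binds heparan sulfate and links collagen to basement membranes, had 81.5 and 74.52 FPKM in TGF-beta-K-80003, 449.89 and 620.43 FPKM in TGF-beta, and 846.6 and 516.09 FPKM in Control. It exceeded Dcn in Control replicate 1 and TGF-beta replicate 2, and the TGF-beta and Control libraries overlapped. The fall with K-80003 was 7.40-fold against TGF-beta (log2 fold change -2.89, SE 0.306; edgeR adjusted p = 0.00283) and 8.66-fold against Control (log2 fold change -3.11, SE 0.309; adjusted p = 0.00158). TGF-beta against Control was -0.23 (SE 0.285; edgeR adjusted p = 0.854). An antisense gene, Gm15851, overlaps Prelp but had at most 8 counts in any library.

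Fmod, which shares a collagen binding site with lumican and carries sulfated tyrosines, was a minor transcript: 0.05 and 0.04 FPKM in TGF-beta-K-80003, 1.91 and 2.52 FPKM in TGF-beta, and 3.05 and 3.39 FPKM in Control. In counts this was 3 and 2 in TGF-beta-K-80003, 116 and 145 in TGF-beta, and 158 and 186 in Control. It was nearly lost in the TGF-beta-K-80003 libraries and present in all 4 others. Scaled for depth, its count there was 0.018 times that of TGF-beta (exact 95% interval 0.00579 to 0.0425) and 0.0134 times that of Control (0.00431 to 0.0315). The fitted log2 fold change was -5.74 (SE 0.356; edgeR adjusted p = 0.000583) against TGF-beta and -6.15 (SE 0.353; adjusted p = 0.000349) against Control. TGF-beta against Control was -0.42 (SE 0.222; edgeR adjusted p = 0.489).

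Ogn, the class III member, first isolated from bone and also called mimecan, had 1.35 and 1.42 FPKM in TGF-beta-K-80003, 47.39 and 44.7 FPKM in TGF-beta, and 55.67 and 52.53 FPKM in Control. In counts, the libraries held 66 and 60 in TGF-beta-K-80003, 2230 and 1998 in TGF-beta, and 2235 and 2237 in Control. It was low in both TGF-beta-K-80003 libraries alone, and its level in TGF-beta lay just below that of Control. Ogn was 35.7-fold lower than with TGF-beta alone (log2 fold change -5.16, SE 0.167; edgeR adjusted p = 0.000204) and 38.6-fold lower than in Control (log2 fold change -5.27, SE 0.168; adjusted p = 0.000156). Of the 15987 genes tested, 27 had a log2 fold change against TGF-beta as low as that of Ogn or lower, and 15 as low as that of Fmod. TGF-beta against Control was -0.11 (SE 0.135; edgeR adjusted p = 0.842).

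Cenpp, a centromere protein gene on the other strand, spans Aspn and Ogn and also the family genes Ecm2 and Omd. It had 7 and 6 counts in TGF-beta-K-80003, 49 and 35 counts in TGF-beta, and 46 and 38 counts in Control. Its log2 fold change against TGF-beta was -2.75 (edgeR adjusted p = 0.00732), a call that was lost without either TGF-beta-K-80003 library (highest adjusted p 0.0657). The sources used here do not say whether the counting used strand, so reads of Cenpp and of the genes inside it cannot be told apart. At under 50 counts per library, Cenpp was small beside Ogn in TGF-beta and Control and larger than Aspn in all 6 libraries.

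Podn, a class V protein described as a brake on smooth muscle cell growth, was the gene of the 8 that was called in TGF-beta against Control. It had 0.79 and 0.77 FPKM in TGF-beta-K-80003, 10.98 and 14.04 FPKM in TGF-beta, and 6.83 and 5.94 FPKM in Control, and the groups did not overlap. Podn was 2.13-fold higher in TGF-beta than in Control (log2 fold change 1.09, SE 0.185; edgeR adjusted p = 0.0373). That call was lost when any 1 of the 6 libraries was left out, with edgeR adjusted p-values between 0.0726 and 0.156. The difference kept its sign in each case, with log2 fold changes from 0.90 to 1.25. With K-80003 added, Podn was 17.3-fold lower than with TGF-beta (log2 fold change -4.11, SE 0.217; edgeR adjusted p = 0.000456) and 8.10-fold lower than in Control (log2 fold change -3.02, SE 0.212; adjusted p = 0.000517). Scp2, a lipid carrier gene on the same strand, overlaps Podn in the annotation and had 19.03 and 24.32 FPKM in TGF-beta-K-80003, 47.77 and 34.83 FPKM in TGF-beta, and 33.76 and 46.76 FPKM in Control. In TGF-beta-K-80003, Scp2 was lower by log2 fold changes of -1.04 against TGF-beta (edgeR adjusted p = 0.0388) and -0.88 against Control (adjusted p = 0.0462). Both calls were lost without either TGF-beta-K-80003 library, among others. The sources used here do not say how reads of the shared stretch were assigned.

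**Figure D2:**
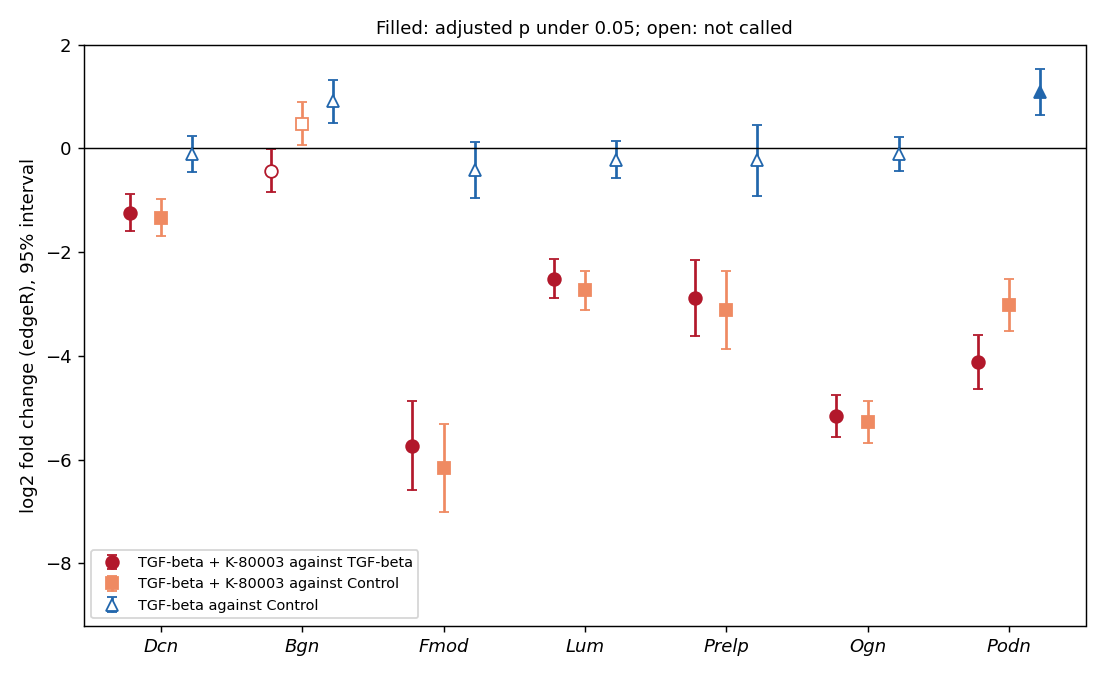
Log2 fold changes (edgeR) with 95% intervals of the 7 tested genes for TGF-beta-K-80003 against TGF-beta (circles), TGF-beta-K-80003 against Control (squares) and TGF-beta against Control (triangles); filled symbols passed an adjusted p of 0.05. In both comparisons with TGF-beta-K-80003 the 6 filled genes lie below 0, from -1.24 for Dcn to -6.15 for Fmod, while Bgn, unfilled, is at -0.43 against TGF-beta and 0.48 against Control, and in TGF-beta against Control only Podn, at 1.09, is filled.

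Since the genes moved by unequal amounts, the make-up of the family's transcripts differed between groups. The 8 genes together took 0.530% and 0.532% of all counts in TGF-beta-K-80003, 1.02% and 1.06% in TGF-beta, and 1.06% and 0.942% in Control. Their summed level was 931 and 935 FPKM in TGF-beta-K-80003, 2012 and 2126 FPKM in TGF-beta, and 2255 and 1941 FPKM in Control. The sum in TGF-beta-K-80003 was thus below every other library, and TGF-beta and Control overlapped. Bgn made up 56.7% and 54.0% of that sum in TGF-beta-K-80003, 29.7% and 32.7% in TGF-beta, and 18.3% and 17.4% in Control. The share of Prelp was 8.75% and 7.97% in TGF-beta-K-80003, 22.4% and 29.2% in TGF-beta, and 37.5% and 26.6% in Control. The share of Dcn was 31.4% and 34.6% in TGF-beta-K-80003, 36.7% and 28.8% in TGF-beta, and 33.0% and 42.8% in Control, and the groups overlapped.

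Set against each other within a library, the ratio of Bgn to Dcn in FPKM was 1.80 and 1.56 in TGF-beta-K-80003, 0.810 and 1.14 in TGF-beta, and 0.553 and 0.407 in Control. Bgn therefore exceeded Dcn in both TGF-beta-K-80003 libraries and in 1 TGF-beta library, and in neither Control library. The ratio of Lum to Dcn, the neighbours on chromosome 10, was 0.0918 and 0.0921 in TGF-beta-K-80003, 0.223 and 0.223 in TGF-beta, and 0.250 and 0.235 in Control. The ratio of Prelp to Bgn was 0.154 and 0.148 in TGF-beta-K-80003, 0.752 and 0.892 in TGF-beta, and 2.05 and 1.53 in Control. For these 3 ratios the groups did not overlap. The ratio of Ogn to Dcn was 0.00461 and 0.00439 in TGF-beta-K-80003, 0.0642 and 0.0730 in TGF-beta, and 0.0747 and 0.0633 in Control. That of Ogn to Lum was 0.0502 and 0.0476 in TGF-beta-K-80003, 0.288 and 0.327 in TGF-beta, and 0.299 and 0.269 in Control. In both ratios with Ogn, TGF-beta and Control overlapped and TGF-beta-K-80003 lay below them. These ratios are descriptions with no test.

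**Figure D3:**
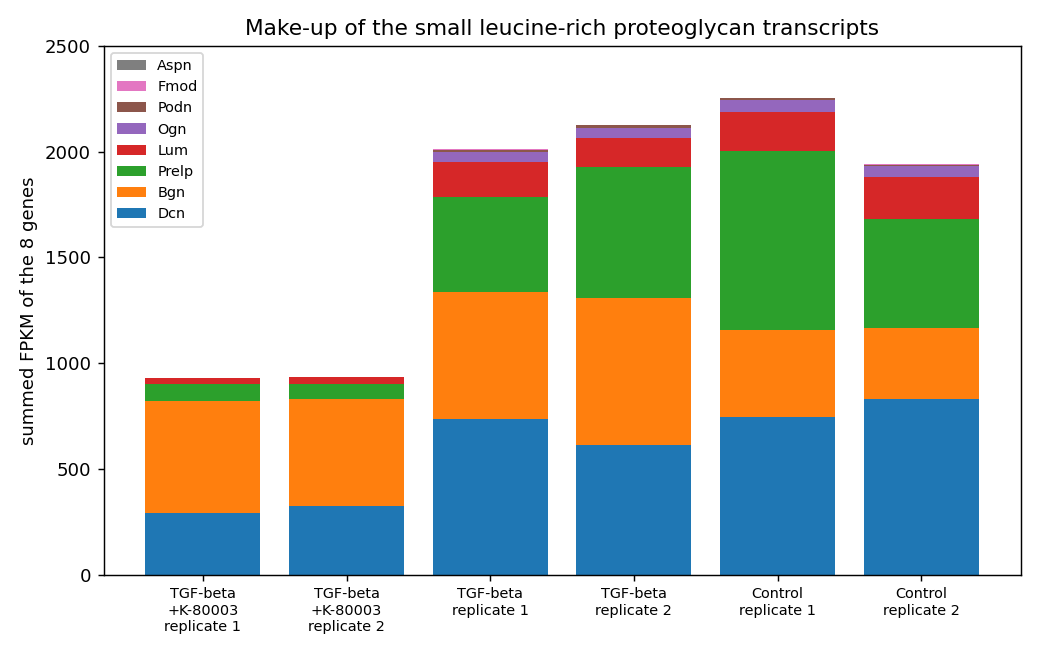
Summed FPKM of the 8 genes in each of the 6 libraries (linear axis from 0), split by gene, with TGF-beta-K-80003 on the left, TGF-beta in the middle and Control on the right. The sum is 931 and 935 FPKM in the TGF-beta-K-80003 libraries and 1941 FPKM or more in the others, and the Bgn layer is the deepest one with K-80003.

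By the root mean square difference of centred log2 CPM over the 6 libraries, the 2 members most alike were Fmod and Ogn (0.212), followed by Lum and Prelp (0.359), and Bgn and Fmod differed most (2.51). Dcn and Lum, though next to each other in the genome, differed by 0.632. The same measure was used to find, among 7881 other genes, those with the pattern nearest to each member. Nearest to Ogn were Igfbp3, a binding protein for IGF ligands (0.207), and Ankrd55 (0.301), and the same genes were nearest to Fmod, at 0.230 and 0.298. Igfbp3 had 8.09 and 9.26 FPKM in TGF-beta-K-80003, 235.65 and 199.39 FPKM in TGF-beta, and 299.21 and 359.1 FPKM in Control. Nearest to Lum were Rtn1 (0.133) and Popdc2 (0.138), and nearest to Prelp were Myh11, the smooth muscle myosin heavy chain (0.187), and Itga8, an integrin subunit (0.208). Nearest to Podn were Smoc2 (0.278) and Rgs4 (0.396), and Rgs4 had 0.82 and 0.73 FPKM in TGF-beta-K-80003, 19.15 and 16.92 FPKM in TGF-beta, and 4.85 and 5.43 FPKM in Control. Dcn was followed most closely by Fscn1 (0.0576), and Bgn by Ext1 (0.0375), an enzyme of heparan sulfate chain synthesis, and Bmp1 (0.0804). Small values are easier to reach for genes that moved little, so the measure ranks neighbours within a member and not across members.

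The remaining genes of the family were at low levels or absent, with the exception of Tsku. Of 10 listed, 7 were tested, and Kera and Epyc had 0 counts in all 6 libraries while Podnl1 had at most 4. In TGF-beta-K-80003 against TGF-beta, 2 were called higher and 1 lower, beside 2.78% and 7.32% of all genes. Tsku (tsukushi), a secreted regulator of growth factor signals, had 48.51 and 48.23 FPKM in TGF-beta-K-80003, 22.45 and 25.35 FPKM in TGF-beta, and 21.69 and 19.6 FPKM in Control. It was 0.91 higher on the log2 scale than with TGF-beta (SE 0.155; edgeR adjusted p = 0.0156), and 1.24 higher than in Control (adjusted p = 0.00348). The first of these calls was lost without any 1 of the 4 TGF-beta-K-80003 and TGF-beta libraries (highest edgeR adjusted p 0.140). Tsku therefore ran opposite in sign to the 6 genes that fell.

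Ecm2, the neighbour of Aspn, had 0.42 and 0.45 FPKM in TGF-beta-K-80003, 1.51 and 1.3 FPKM in TGF-beta, and 1.53 and 1.38 FPKM in Control, a log2 fold change of -1.80 against TGF-beta (SE 0.204; edgeR adjusted p = 0.00361). Ecm2 and the next gene, Omd, lie inside Cenpp, and with the strand setting unknown its reads cannot be told apart from theirs. Omd (osteomodulin), which lies between Aspn and Ogn, had 0 and 1 counts in TGF-beta-K-80003, 13 and 6 counts in TGF-beta, and 16 and 9 counts in Control. Its adjusted p by edgeR was 0.0689 against TGF-beta and 0.0308 against Control, and the second was lost without any 1 of the TGF-beta-K-80003 and Control libraries (highest adjusted p 0.178). Nyx (nyctalopin), known from the retina, was the 1 listed gene that TGF-beta lowered, with 0.91 and 0.77 FPKM in TGF-beta-K-80003, 0.14 and 0.19 FPKM in TGF-beta, and 0.91 and 0.6 FPKM in Control. The edgeR adjusted p was 0.0116 for TGF-beta-K-80003 against TGF-beta (log2 fold change 2.27), lost without TGF-beta replicate 1 or either TGF-beta-K-80003 library (highest adjusted p 0.0728). For TGF-beta against Control it was 0.0381 (log2 fold change -2.09), lost without any 1 library (highest adjusted p 0.174). Optc, Chad and Chadl passed no test, with log2 fold changes against TGF-beta of -1.25, 0.02 and 0.40.

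Several collagens that these proteoglycans bind were higher with TGF-beta alone and lower once K-80003 was added. Of 10 tested, 4 were higher in TGF-beta than in Control, where 1.06% of all genes were called higher. In TGF-beta-K-80003, 7 were lower than in TGF-beta, where 7.32% of all genes were called lower. Medians were -1.15 for TGF-beta-K-80003 against TGF-beta and 1.00 for TGF-beta against Control. Col1a1, the main fibrillar collagen chain of scar, had 355.28 and 351.38 FPKM in TGF-beta-K-80003, 614.28 and 699.56 FPKM in TGF-beta, and 220.59 and 231.19 FPKM in Control. Its log2 fold change was -1.003 (SE 0.144; edgeR adjusted p = 0.00833) for TGF-beta-K-80003 against TGF-beta and 1.66 (SE 0.146; adjusted p = 0.00742) for TGF-beta against Control. The first of these calls was lost without either TGF-beta-K-80003 library. Col3a1 had 101.63 and 102.4 FPKM in TGF-beta-K-80003, 602.35 and 599.66 FPKM in TGF-beta, and 339.92 and 303.53 FPKM in Control, a log2 fold change of -2.67 against TGF-beta (SE 0.144; edgeR adjusted p = 0.000456). Dcn, Lum, Prelp and Ogn passed no test in TGF-beta against Control, where Col1a1 was called, and the difference between them and Col1a1 was not tested. Leaving out TGF-beta-K-80003 replicate 1 left 4 of the 7 lower collagens and leaving out replicate 2 left 2. The 4 higher ones in TGF-beta became 3 without any library but Control replicate 1.

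Against Control, TGF-beta-K-80003 had 2 collagens higher and 4 lower, with a median of -0.14. The shares of all genes were 5.54% higher and 11.7% lower in that comparison. Col1a1 was higher (log2 fold change 0.66; edgeR adjusted p = 0.0248), a call lost without any 1 of the TGF-beta-K-80003 and Control libraries (highest adjusted p 0.177), while Col3a1 was lower (log2 fold change -1.64; adjusted p = 0.000956). Col6a1, a chain of the beaded collagen VI to which decorin and biglycan bind, had 24.63 and 23.48 FPKM in TGF-beta-K-80003, 55.82 and 66.22 FPKM in TGF-beta, and 81.51 and 83.88 FPKM in Control. Its log2 fold change against Control was -1.77 (SE 0.163; edgeR adjusted p = 0.00125). Like Dcn and Lum, it was lowest in both TGF-beta-K-80003 libraries.

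Of 17 growth factors and receptors known to bind these proteins, 2 were higher and 4 lower in TGF-beta-K-80003 than in TGF-beta. Over all genes, 2.78% were called higher and 7.32% lower there. Tgfb2, a TGF-beta ligand that decorin and biglycan can bind, had 2.54 and 2.59 FPKM in TGF-beta-K-80003, 17.48 and 18.97 FPKM in TGF-beta, and 13.61 and 12.28 FPKM in Control (log2 fold change against TGF-beta -2.94, SE 0.160; edgeR adjusted p = 0.000456). Tgfb3, another TGF-beta ligand, had 7.0 and 6.84 FPKM in TGF-beta-K-80003, 36.12 and 39.74 FPKM in TGF-beta, and 62.06 and 63.71 FPKM in Control (log2 fold change against TGF-beta -2.56, SE 0.153; adjusted p = 0.000528). Both ligand genes were lowest in the TGF-beta-K-80003 libraries. Tgfb1, the remaining TGF-beta ligand, had 32.66 and 35.55 FPKM in TGF-beta-K-80003, 22.53 and 21.22 FPKM in TGF-beta, and 18.55 and 17.64 FPKM in Control, and was highest in the TGF-beta-K-80003 libraries. Its log2 fold change was 0.53 against TGF-beta (edgeR adjusted p = 0.0614) and 0.93 against Control (adjusted p = 0.00638), and the second was lost without either TGF-beta-K-80003 library (highest adjusted p 0.0788). Without either TGF-beta-K-80003 library no partner was called higher, while 4 were still called lower. In TGF-beta against Control 3 were higher and 2 lower, beside 1.06% and 1.88% of all genes. Ccn4, a matricellular protein that decorin and biglycan bind, had 65.64 and 57.26 FPKM in TGF-beta-K-80003, 34.18 and 42.66 FPKM in TGF-beta, and 6.32 and 5.06 FPKM in Control (log2 fold change of TGF-beta against Control 2.88, SE 0.220; edgeR adjusted p = 0.0060). Leaving out any 1 library left 2 higher and 1 lower partners in TGF-beta against Control.

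Among 14 genes listed as proteases that process or cut these proteins, 12 were tested, and Pcolce on that list is an enhancer of procollagen processing, not a protease. In TGF-beta-K-80003 against TGF-beta 1 was higher and 4 were lower, beside 2.78% and 7.32% of all genes. Adamts5, an aggrecanase that also cuts biglycan, had 1.13 and 1.17 FPKM in TGF-beta-K-80003, 12.56 and 15.05 FPKM in TGF-beta, and 28.11 and 23.79 FPKM in Control (log2 fold change against TGF-beta -3.69, SE 0.197; edgeR adjusted p = 0.000456). Mmp13, a collagenase, had 11.46 and 12.59 FPKM in TGF-beta-K-80003, 3.39 and 2.75 FPKM in TGF-beta, and 4.3 and 4.89 FPKM in Control (log2 fold change against TGF-beta 1.86, SE 0.166; adjusted p = 0.00168). Adamts5 and Mmp13 thus moved in opposite directions. The 4 lower calls became 3 without Control replicate 1 and 2 without any 1 of the TGF-beta or TGF-beta-K-80003 libraries. Bmp1, the protease that removes the propeptide of biglycan, was higher in TGF-beta than in Control (log2 fold change 0.85, SE 0.146; edgeR adjusted p = 0.0377), a call lost without any 1 library (highest adjusted p 0.188). Mmp12, a macrophage elastase, was lower in that comparison (log2 fold change -1.09; edgeR adjusted p = 0.0196), and this too was lost without any 1 library (highest adjusted p 0.147).

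The glycosaminoglycan chains are built by a separate set of enzymes. Of 20 tested genes of chondroitin and dermatan sulfate synthesis, 1 was higher and 2 were lower in TGF-beta-K-80003 than in TGF-beta, with a median log2 fold change of -0.10, where 2.78% of all genes were called higher and 7.32% lower. Dse, the epimerase that turns chondroitin into dermatan sulfate, had 26.67 and 25.63 FPKM in TGF-beta-K-80003, 42.11 and 41.89 FPKM in TGF-beta, and 40.17 and 33.48 FPKM in Control (log2 fold change against TGF-beta -0.79, SE 0.158; edgeR adjusted p = 0.0270). B4galt7, which adds a galactose of the chain's linker, was higher (log2 fold change 0.68, SE 0.148; adjusted p = 0.0357). The call for Dse was lost without any 1 of the TGF-beta-K-80003 and TGF-beta libraries (highest adjusted p 0.243), and that for B4galt7 without these or Control replicate 2 (highest adjusted p 0.268). Without either TGF-beta-K-80003 library none of the 3 calls was made. In TGF-beta against Control, where 1.06% of all genes were called higher, 1 of the 20, the sulfotransferase gene Chst11, was higher (log2 fold change 1.92, SE 0.309; edgeR adjusted p = 0.0311). This call was lost without Control replicate 2, TGF-beta replicate 2 or either TGF-beta-K-80003 library (highest adjusted p 0.0980).

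Of 7 tested genes for keratan sulfate chains and tyrosine sulfation, the modifications of lumican and fibromodulin, 1 was higher and 1 lower in TGF-beta-K-80003 than in TGF-beta. The shares of all genes were 2.78% higher and 7.32% lower there. Chst1, a keratan sulfate sulfotransferase, had 5.65 and 6.17 FPKM in TGF-beta-K-80003, 1.32 and 1.37 FPKM in TGF-beta, and 3.31 and 3.62 FPKM in Control (log2 fold change against TGF-beta 2.02, SE 0.174; edgeR adjusted p = 0.00155). It was highest where Lum and Fmod were lowest. Tpst1, a tyrosine sulfotransferase, was lower (log2 fold change -1.12, SE 0.183; edgeR adjusted p = 0.0132), a call lost without TGF-beta replicate 1 or either TGF-beta-K-80003 library (highest adjusted p 0.140). In TGF-beta against Control, Chst2 was higher (log2 fold change 1.60; edgeR adjusted p = 0.00942), which was lost without Control replicate 2 or TGF-beta replicate 1 (highest adjusted p 0.0669). Chst1 was lower there (log2 fold change -1.24; edgeR adjusted p = 0.0202), a call lost without any 1 library (highest adjusted p 0.132).

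Of 16 tested genes of other matrix and cell surface proteoglycans, 1 was higher and 3 were lower in TGF-beta-K-80003 than in TGF-beta, and 0 passed edgeR's test in TGF-beta against Control. The shares of all genes called were 2.78% higher and 7.32% lower in the first comparison, and 2.94% in either direction in the second. In the second comparison 7 of the 16 had an unadjusted p under 0.05, DESeq2 called 2 of the list higher and 0 lower, and limma called 0 higher and 1 lower on log2(FPKM + 1) and 0 on log2(FPKM + 0.1). Gpc4, a glypican that holds heparan sulfate at the cell surface, had 33.19 and 32.86 FPKM in TGF-beta-K-80003, 89.97 and 93.7 FPKM in TGF-beta, and 76.14 and 75.02 FPKM in Control (log2 fold change against TGF-beta -1.58, SE 0.140; edgeR adjusted p = 0.00161). Esm1 (endocan), a dermatan sulfate proteoglycan of endothelial cells, had 58.92 and 69.82 FPKM in TGF-beta-K-80003, 18.88 and 14.18 FPKM in TGF-beta, and 10.97 and 13.59 FPKM in Control (log2 fold change against TGF-beta 1.86, SE 0.195; adjusted p = 0.00276). Esm1 thus ran opposite to Gpc4. Sdc2 (log2 fold change -1.40; edgeR adjusted p = 0.00266) and Sdc4 (-1.28; adjusted p = 0.00971), both syndecans, were the others that fell, and the call for Sdc4 was lost without TGF-beta replicate 1 or either TGF-beta-K-80003 library (highest adjusted p 0.105).

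**Figure D4:**
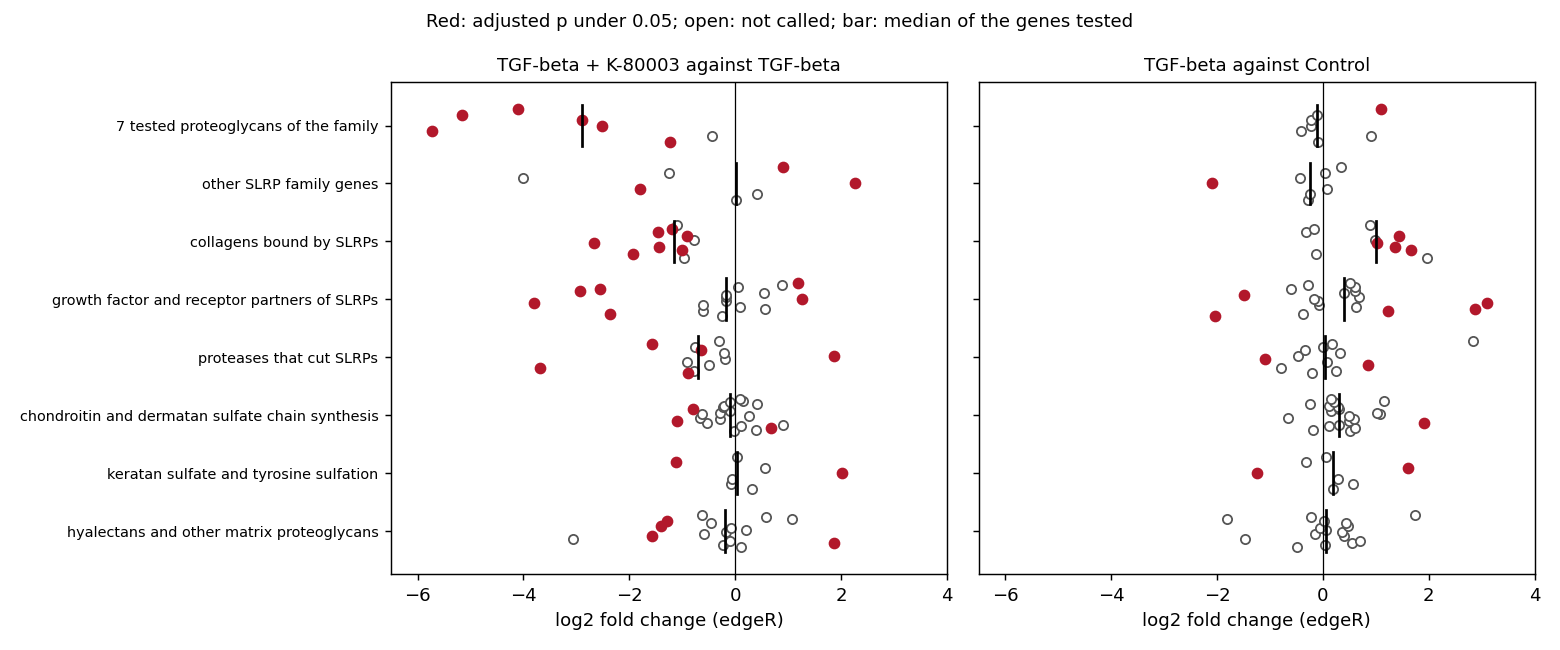
Log2 fold changes (edgeR) of the 7 tested small leucine-rich proteoglycans and of the tested genes of 7 related lists, for TGF-beta-K-80003 against TGF-beta (left) and TGF-beta against Control (right); each point is a gene, red points passed an adjusted p of 0.05, and bars are medians. The 7 genes have a median of -2.89 on the left, the collagens -1.15, and the other lists lie between -0.70 and 0.04.

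In TGF-beta-K-80003 against Control, 5.54% of all genes were called higher and 11.7% lower. The calls in these lists were 1 higher and 2 lower of 7 tested other family genes, and 6 higher and 5 lower of the 17 partners. Of 12 tested genes of the protease list, 2 were higher and 5 lower. Of 20 tested genes of chondroitin and dermatan sulfate synthesis, 4 were higher and 1 lower. For keratan sulfate and tyrosine sulfation there were 2 higher and 1 lower of 7 tested, and for the other proteoglycans 2 higher and 4 lower of 16. With 1 library left out at a time, the higher calls ran from 2 to 5 among the partners and from 1 to 4 in chondroitin and dermatan sulfate synthesis. The lower calls then ran from 3 to 7 among the proteases and from 1 to 4 among the other proteoglycans.

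Markers of stellate cells and of other cell types also differed between groups, and not all in the pattern of the proteoglycan genes. The tested mesothelial markers had a median log2 fold change of -1.93 in TGF-beta against Control and -0.14 in TGF-beta-K-80003 against TGF-beta. For the cholangiocyte markers these medians were -1.21 and -0.47. Of the 12 stellate cell markers, 7 were lower in TGF-beta-K-80003 than in TGF-beta, among them Lrat (log2 fold change -5.22; edgeR adjusted p = 0.000424), and 9 were lower than in Control, where 7.32% and 11.7% of all genes were called lower. With 1 library left out these counts were 5 to 7 and 5 to 9. Lrat had the lowest log2 fold change of the 12 against TGF-beta, where their median was -1.09. The 3 most abundant were Ecm1 (-0.20; edgeR adjusted p = 0.533), Reln (0.13; adjusted p = 0.922) and Pdgfrb (-1.21; adjusted p = 0.0321). Only Pdgfrb of these was called, a call lost without TGF-beta replicate 2 or either TGF-beta-K-80003 library. The 10 portal fibroblast markers, cells that also make Dcn and Lum, summed to 44.5 to 46.6 FPKM in TGF-beta-K-80003, 41.0 to 45.4 FPKM in TGF-beta and 12.6 to 16.1 FPKM in Control, with Thy1 at no more than 10 counts in any library. Fbln2, a fibulin of the matrix, made up most of that sum, with 43.23 and 41.03 FPKM in TGF-beta-K-80003, 32.03 and 37.2 FPKM in TGF-beta, and 11.37 and 7.52 FPKM in Control. Of the 6 portal fibroblast markers tested, 2 were lower in TGF-beta-K-80003 than in TGF-beta, with a median log2 fold change of -1.07 over the 6. These were Dpt (log2 fold change -1.76; edgeR adjusted p = 0.00587, and 0.0605 without TGF-beta-K-80003 replicate 2) and Mfap4 (-2.80; adjusted p = 0.0181), whose call was lost without any 1 of the TGF-beta-K-80003 and TGF-beta libraries (highest adjusted p 0.145). In TGF-beta against Control 3 of the 6 were higher, Fbln2, Dpt and Mfap4, or 0 to 3 with 1 library left out. Over all genes, 1.06% were called higher in that comparison and 1.88% lower. The 9 mesothelial markers summed to 88.1 to 114 FPKM in TGF-beta-K-80003, 91.4 to 118 FPKM in TGF-beta and 384 to 565 FPKM in Control, with Upk3b at 0 in TGF-beta-K-80003. The keratins Krt8, Krt18 and Krt19 had the highest levels among them. Wt1, a transcription factor that defines mesothelial cells, had 0.06 and 0 FPKM in TGF-beta-K-80003, 0.74 and 0.51 FPKM in TGF-beta, and 0.36 and 0.39 FPKM in Control. It was the 1 of 5 tested mesothelial markers called lower in TGF-beta-K-80003 than in TGF-beta (log2 fold change -4.36; edgeR adjusted p = 0.0162), as were 6 of the proteoglycan genes. Against Control all 5 were lower in TGF-beta-K-80003 and 4 in TGF-beta, beside 11.7% and 1.88% of all genes. With 1 library left out these counts were 4 to 5 and 2 to 4.

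The 7 cholangiocyte markers summed to 73.1 to 85.5 FPKM in TGF-beta-K-80003, 81.2 to 107 FPKM in TGF-beta and 205 to 284 FPKM in Control. The 11 sinusoidal endothelial markers summed to 150 to 168 FPKM in TGF-beta-K-80003, 81.7 to 97.7 FPKM in TGF-beta and 120 to 150 FPKM in Control. Cdh5, a junction protein of endothelial cells, was the most abundant of them in TGF-beta-K-80003, at 85.26 and 71.1 FPKM, against 28.06 and 37.55 FPKM in TGF-beta and 35.67 and 21.6 FPKM in Control. Over all genes, 2.78% were called higher and 7.32% lower in TGF-beta-K-80003 than in TGF-beta, and 5.54% and 11.7% than in Control. Members of the endothelial list went both ways: 3 of the 11 were higher and 1 lower in TGF-beta-K-80003 than in TGF-beta, and 4 were higher and 5 lower than in Control. The higher calls were not made without either TGF-beta-K-80003 library, nor, against TGF-beta, without TGF-beta replicate 2, and the lower calls against Control ran from 3 to 6 with 1 library left out. Lyve1, a hyaluronan receptor of sinusoidal endothelium, was the lower one against TGF-beta, with a log2 fold change of -4.66 (edgeR adjusted p = 0.00228), and against Control it was at -6.98 (adjusted p = 0.000351). The 11 macrophage markers summed to 15.5 to 21.0 FPKM in TGF-beta-K-80003, 27.5 to 30.9 FPKM in TGF-beta and 29.8 to 31.2 FPKM in Control. Hepatocyte markers summed to 2.29 to 24.3 FPKM in TGF-beta-K-80003, 3.97 to 4.14 FPKM in TGF-beta and 5.02 to 7.5 FPKM in Control. Markers of lymphocytes and neutrophils summed to 0.61 to 0.93 FPKM in TGF-beta-K-80003, 0.42 to 0.67 FPKM in TGF-beta and 0.19 to 0.42 FPKM in Control. Among defining markers, Timd4 of resident macrophages was at 0 in TGF-beta-K-80003 and Control, Tat of hepatocytes at 0 in TGF-beta and Control, and Ly6g of neutrophils at 0 in all 6 libraries. The part of the marker genes' differences in the proteoglycan results was not tested.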

How the data were processed

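Poly(A) RNA of 6 libraries was sequenced. The authors deposited 1 table with integer read counts per gene and library, not normalized, and FPKM values. Each deposited FPKM value was the count over the exonic length and over the summed count of its library, within 0.005 for 100% of the values, so FPKM carried no further scaling. The submitters' processing notes name the build GRCm39 and the tools HTSeq 0.6.1, DESeq2, HISAT2 2.0.1, Cufflinks 2.2.1, cutadapt 1.9.1 and SAMtools 0.1.19, and their roles, the annotation release and the strand setting are not stated in those notes or the labels.

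Groups were taken from the sample titles. Counts were filtered with filterByExpr (minimum count 10, minimum total 15), which kept 15987 of 56691 genes, and the genes left out held 0.13% of counts. TMM-scaled counts were tested with edgeR 4.0.16 (R 4.3.3) by its quasi-likelihood test in 1 fit to all 6 libraries without a block (3 residual and 3.45 prior degrees of freedom, common dispersion 0.038). Tests were two-sided, with Benjamini-Hochberg adjustment over the 15987 genes, and an adjusted p under 0.05 made a call. Aspn did not pass the filter. SDs and FPKM means are over 2 libraries. Ratios of few counts carry exact binomial 95% intervals. The 2 libraries of each group differed by more than counting noise (chi-square per degree of freedom at least 20.9). The code was tested on simulated counts. Replicate numbers share no stated origin, so no block was used.

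Named genes are all 8 members, every measured gene of the other family list, up to 3 called genes of smallest p per list for each of 2 comparisons, the 2 nearest genes per member (mean FPKM at least 5 in the highest group), and the 3 most abundant markers per cell type, of which those that carry a result are printed. Genes overlapping Aspn, Ogn, Prelp and Podn, the label check with Lrat, and the markers Thy1, Upk3b, Wt1, Mfap4, Lyve1, Timd4, Tat and Ly6g, and the list members Sdc4 and Tgfb1, are named besides and were chosen after their values were seen, and 1 gene that the rule names is not reported here. The members, the 7 related lists and the 8 marker lists were chosen with earlier results of these data known. Alternatives were another scaling (median of ratios, upper quartile), no filter, DESeq2 1.42.0, limma 3.58.1 on log2(FPKM + 1) and log2(FPKM + 0.1), the 2 compared groups alone, a replicate block, and each library left out. Promoter sequences are those of RefSeq on GRCm38.p6 and were not placed on GRCm39.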

Additional observations from a re-analysis of the deposited data

How the results depend on the processing

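The 6 lower calls in TGF-beta-K-80003 against Control held under every alternative planned. Against TGF-beta the count of members called stayed at 6, or 5 to 6 with 1 library left out. In TGF-beta against Control the single member called, Podn, became 0 under the replicate block (adjusted p = 0.143), under limma with either pseudocount (adjusted p = 0.05005 and 0.0616), with only the 2 groups compared (0.0987) and with any 1 library left out (0 to 0), and 2 members, Podn and Bgn, were called without the filter and by DESeq2. Signs turned for Dcn in that comparison without TGF-beta replicate 2 (log2 fold changes -0.248 to 0.022 with 1 library left out) and for Prelp without Control replicate 1 (-0.56 to 0.19), neither of them called.

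Genes called in TGF-beta against Control numbered 470, and 40 with the replicate block, 1143 without the filter, 735 by DESeq2, 199 with the 2 groups alone and 89 to 218 with 1 library left out. In TGF-beta-K-80003 against TGF-beta they numbered 1616, and 792 with the replicate block, 2492 without the filter and 451 to 1661 with 1 library left out. In TGF-beta-K-80003 against Control they numbered 2758, and 1564 with the replicate block and 996 to 2397 with 1 library left out. The share of higher calls was 36.2% in TGF-beta against Control (22.9% with limma on log2(FPKM + 1), 25.7% on log2(FPKM + 0.1)), and 27.5% in TGF-beta-K-80003 against TGF-beta (40.2% and 37.9%). With 1 library left out it ran from 35.3% to 52.8% in TGF-beta against Control (52.8% without TGF-beta replicate 1, 48.0% without TGF-beta replicate 2) and from 16.9% to 27.8% in TGF-beta-K-80003 against TGF-beta (16.9% without TGF-beta replicate 1, 17.6% without TGF-beta replicate 2). In TGF-beta-K-80003 against Control it was 32.1%, and 20.7% to 27.2% with 1 library left out (20.7% without TGF-beta-K-80003 replicate 1). On log2(FPKM + 0.1) the median of all genes moved to -0.10 in TGF-beta against Control and 0.11 in TGF-beta-K-80003 against TGF-beta. The cause of these changes was not tested.

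Same-numbered libraries deviated with correlations of 0.50 between TGF-beta-K-80003 and Control, -0.48 between TGF-beta-K-80003 and TGF-beta, and -0.64 between TGF-beta and Control, so the numbers are not taken as pairs. A crossed replicate block, with the numbers of TGF-beta exchanged and chosen after seeing the data, called 2, 7 and 7 members and 3708, 5903 and 7352 genes in TGF-beta against Control, TGF-beta-K-80003 against TGF-beta and TGF-beta-K-80003 against Control. Depth limits Aspn, Omd and Fmod, which had at most 3 counts per library in TGF-beta-K-80003.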
